A study of Homo sapiens with 12 samples.

Results

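EGR1 and 9 further immediate early genes were followed in PC3 and MG63 cells after knockdown of LARP4A or LARP4B. The genes were EGR1, EGR2, EGR3, FOS, FOSB, FOSL1, JUN, JUNB, IER2 and MYC, 10 of the 26415 gene symbols used from the deposited tables. EGR1 was chosen by its measured response to siLARP4A, which went down in PC3 and up in MG63, and the other 9 were added as members of the EGR, FOS and JUN families or as immediate early genes. Where a gene had several transcript models, the one with the largest summed fragment count was read. EGR1 therefore has no test in any comparison that involves siLARP4A, and those of its values are a description.

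PC3 is a human prostate adenocarcinoma line and MG63 a human osteosarcoma line, both labelled wild type. Each was transfected with 10 nM of a non-targeting siRNA (siControl), siLARP4A or siLARP4B through Lipofectamine RNAiMAX, and poly(A) RNA was sequenced after 72 h. The lines were grown in different media, both with serum, so line and medium cannot be told apart. The 6 groups held 2 libraries each, 12 in all, and p-values measure the spread between those libraries. LARP4A (gene symbol LARP4) and LARP4B are related RNA-binding proteins, and the series asks what they contribute to tumour cell behaviour. How many siRNA sequences were used per target is not given in the sources used here.

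Immediate early genes are switched on within minutes of a growth factor or stress signal, without new protein synthesis. Their promoters are bound by serum response factor with ternary complex factors of the ELK family, and by factors of the CREB family, which kinases of the MAPK cascade activate. The EGR proteins are zinc finger transcription factors, FOS and JUN proteins pair to form AP-1, and MYC drives growth genes. Their messenger RNAs are usually short-lived. In cultures growing steadily in serum some of them stand at low levels and others stay high, and the levels can move with the signals a culture receives.

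Library totals ran from 16950119 to 24864977 fragments, highest in PC3 siLARP4A replicate 1. LARP4 fell to 12.5% of its siControl level in PC3 and to 26.1% in MG63 after siLARP4A. LARP4B fell to 17.9% and 31.1% after siLARP4B. LARP4 was also higher in MG63 after siLARP4B, by 0.44 ± 0.059 (SE) on the log2 scale. The summed level of 5 epithelial markers was 796 to 1042 FPKM (fragments scaled to the library total and the model's length) in PC3 and 54.6 to 72.2 FPKM in MG63, and that of 7 bone and mesenchymal markers 426 to 538 and 4555 to 5189 FPKM. With siControl 5 of these 7 were higher in MG63 (39.7% of all tested genes were), 1 was higher in PC3 (42.1%) and 1 did not pass. TWIST1 went against the sum, with means of 28.4 FPKM in PC3 and 7.41 in MG63. RUNX2 was low in both, at 0.263 and 0.161 FPKM. Most of the PC3 sum was VIM, at 472 FPKM. KLK3, the gene of prostate-specific antigen and a prostate luminal marker, was near 0, with at most 1 fragment and 0.0442 FPKM in any PC3 library, so the prostate origin of PC3 is not visible in it. Between groups, the epithelial sum in PC3 was 852 to 868 FPKM with siControl, 993 to 1042 with siLARP4A and 796 to 822 with siLARP4B, but its genes did not move together: after siLARP4A KRT8 and KRT18 rose and EPCAM fell, and after siLARP4B KRT8 and CDH1 rose and KRT19 and EPCAM fell. In MG63 that sum was 71.5 to 72.2, 64.6 to 67.4 and 54.6 to 56.2 FPKM. Of the 7 bone and mesenchymal markers, 4 rose and 1 fell in MG63 after siLARP4A, with a median of 0.49 on the log2 scale, and 1 rose and 2 fell in PC3. Of all tested genes, 14.5% rose and 11.9% fell in MG63, and 17% and 19% in PC3. After siLARP4B 2 of the 7 rose and 3 fell in PC3, where 21.3% and 23.4% of all tested genes did. In MG63 1 rose and 1 fell, where 18.8% and 16.3% did. Whether these shifts bear on the immediate early genes was not tested.

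Promoter sequences from RefSeq (GRCh38.p14), 250 bases before to 50 after the start site and on the gene's own strand, were matched for 7 of the 10 genes. Those of EGR1, FOS, JUN and JUNB are shown because EGR1 and JUNB moved the same way in MG63, while JUN was higher and EGR1 and FOS were lower in PC3 after siLARP4A. Capitals mark motif matches: CArG boxes, the elements that serum response factor binds (10 letters), half-sites of the cAMP response element (TGACGT or ACGTCA) and TATA boxes (TATAAA).

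EGR1 promoter, chr5:138465229-138465528, plus strand: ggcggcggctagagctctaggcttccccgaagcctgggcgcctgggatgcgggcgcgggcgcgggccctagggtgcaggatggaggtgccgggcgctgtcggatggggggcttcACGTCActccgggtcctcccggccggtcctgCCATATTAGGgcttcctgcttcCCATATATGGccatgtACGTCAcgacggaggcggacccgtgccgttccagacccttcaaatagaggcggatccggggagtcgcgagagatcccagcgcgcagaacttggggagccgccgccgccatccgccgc
FOS promoter, chr14:75278578-75278877, plus strand: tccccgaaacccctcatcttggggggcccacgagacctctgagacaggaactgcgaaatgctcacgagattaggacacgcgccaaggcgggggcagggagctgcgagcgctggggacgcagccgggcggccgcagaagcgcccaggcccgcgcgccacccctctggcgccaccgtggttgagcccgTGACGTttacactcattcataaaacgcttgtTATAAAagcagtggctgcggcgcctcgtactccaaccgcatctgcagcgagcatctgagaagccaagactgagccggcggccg
JUN promoter, chr1:58783998-58784297, minus strand: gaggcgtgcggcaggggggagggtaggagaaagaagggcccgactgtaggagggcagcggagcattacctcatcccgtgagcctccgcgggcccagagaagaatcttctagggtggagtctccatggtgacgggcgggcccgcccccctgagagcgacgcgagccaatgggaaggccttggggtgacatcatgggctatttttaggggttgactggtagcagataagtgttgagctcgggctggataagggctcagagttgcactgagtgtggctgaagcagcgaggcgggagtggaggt
JUNB promoter, chr19:12791236-12791535, plus strand: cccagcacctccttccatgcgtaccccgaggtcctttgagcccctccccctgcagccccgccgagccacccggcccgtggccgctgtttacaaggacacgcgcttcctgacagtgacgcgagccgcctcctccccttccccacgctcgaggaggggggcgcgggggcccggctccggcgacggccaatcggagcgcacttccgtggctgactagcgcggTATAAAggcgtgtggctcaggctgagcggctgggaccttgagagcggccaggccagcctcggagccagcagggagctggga

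EGR1 was the one gene of the 7 with a CArG box in this window. It held 2, whose first bases lay at −105 and −83 from the start site, with cAMP response half-sites on either side at −136 and −67. Bases further upstream were not searched, so a CArG box there would be missed in any of the 7. A CArG box was found in 1.29% of the 27195 promoters of this length and in 1.08% of the 11845 that belong to tested genes. A cAMP response half-site was found in EGR1, FOS (at −64) and FOSB (at −60), and in 8.31% of all promoters and 11% of those of tested genes. TATAAA was found in FOS, FOSB and JUNB, at −33, −30 and −31, and in 7.71% of all promoters and 4.14% of those of tested genes. An ETS element (CCGGAA or TTCCGG), the kind of site ELK factors bind, was found in FOSB and IER2, in 17.6% of all promoters and in 27.6% of those of tested genes. Only these letters were searched, so other forms of the site would be missed, in EGR1 too. None of the 7 windows held an AP-1 element (TGAGTCA or TGACTCA, 4.89% of all promoters and 3.46% of those of tested genes) or an EGR element (GCGTGGGCG or GCGGGGGCG on either strand, 5.72% and 9.32%). The EGR2 and JUN windows matched none of the 6 motifs, which says only that these letters do not occur there. The EGR2 window surrounds the RefSeq start at base 62819167. The EGR2 model that was measured starts at base 62816366, so the bases around its own start were not searched. TATA boxes were searched on the gene's strand, the other motifs on both; the motifs marked do not overlap.

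**Figure D1:**
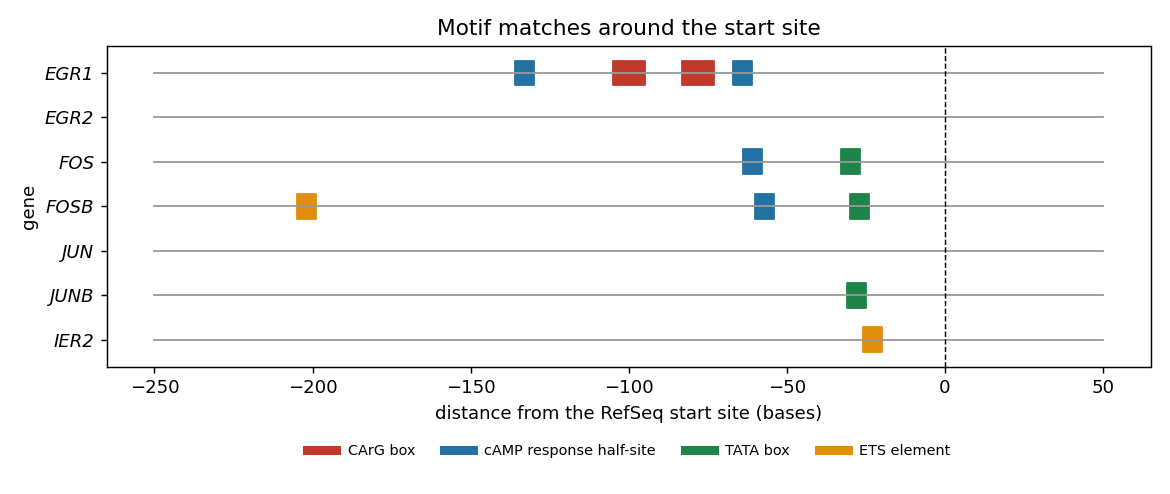
Motif matches in the 300 bases around the RefSeq start site of the 7 genes with a promoter sequence. The x axis is the distance from the RefSeq start site in bases, each row is a gene, and coloured blocks are matches. EGR1 carries 2 CArG boxes at −105 and −83, and the TATA boxes of FOS, FOSB and JUNB lie between −33 and −30.

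Levels of the genes spanned a wide range of levels. With siControl, FOSL1 had the highest mean in both lines, 256 FPKM in PC3 and 140 FPKM in MG63. IER2 (168 and 69), MYC (147 and 23.3), JUNB (61.1 and 75) and JUN (42.8 and 102 FPKM) were also among the upper part of the tested genes. EGR1 stood at 6.29 FPKM in PC3, the 52.2nd percentile of tested genes, and at 17.2 FPKM in MG63, the 76.5th. FOS, FOSB, EGR2 and EGR3 were below 4 FPKM in both lines. Of the 10 genes, 8 differed between the lines under siControl, against 81.8% of all 15668 genes tested. FOSL1, IER2, MYC, FOSB and EGR2 were higher in PC3, as 42.1% of all genes were, and EGR1, JUN and JUNB were higher in MG63, as 39.7% were. The difference was −1.61 ± 0.15 (SE) on the log2 scale for EGR1, with an adjusted p of 8.8e-10, and 2.50 ± 0.049 for MYC. These siControl libraries also entered the choice of EGR1. FOS and EGR3 did not pass, at 0.24 ± 0.19 and −0.28 ± 0.47. All 10 genes passed the filter on low counts, and no other gene of the tables overlapped any of them.

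**Figure D2:**
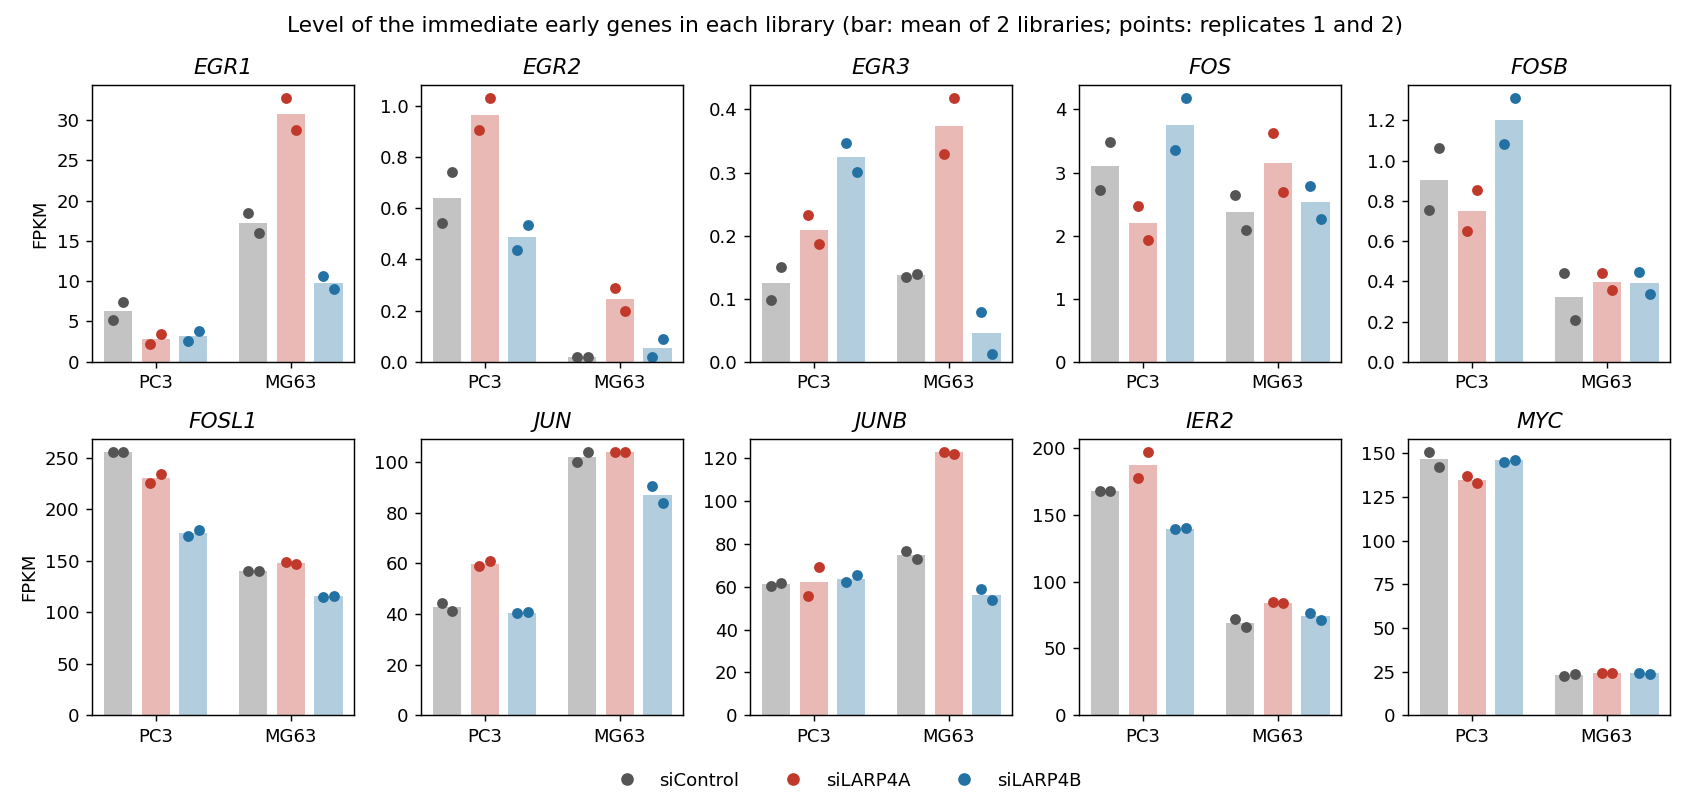
Level of each of the 10 genes in every library. The y axis is FPKM from 0, each panel with its own scale. Points are the 2 replicates of a group and bars their mean. EGR1 in MG63 rises from 17.2 FPKM with siControl to 30.7 with siLARP4A, while in PC3 both siRNAs lie under the siControl libraries.

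EGR1, on chromosome 5 (138465479 to 138469303, plus strand), encodes the best studied EGR factor. In PC3 it measured 5.13 and 7.45 FPKM with siControl (mean 6.29 ± 1.64, SD, n = 2), 2.22 and 3.41 with siLARP4A, and 2.6 and 3.82 with siLARP4B. In MG63 it measured 18.4 and 16 FPKM with siControl, 32.7 and 28.7 with siLARP4A, and 10.6 and 8.97 with siLARP4B. All 4 siRNA libraries of PC3 thus lay under both siControl libraries, whereas in MG63 the siLARP4A libraries lay above and the siLARP4B libraries below them. In the order of group means, MG63 siLARP4A was highest, then MG63 siControl, MG63 siLARP4B and PC3 siControl, each apart from the next; PC3 siLARP4B and PC3 siLARP4A came last and overlapped.

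As a description of the values that chose it, EGR1 after siLARP4A was at 43.4% of siControl in PC3 (log2 −1.21 ± 0.18, SE) and at 181% in MG63 (0.85 ± 0.12). The PC3 value ranged from −1.49 to −0.87 as each of the 4 libraries was left out, and the MG63 value from 0.74 to 0.95. The siLARP4B libraries were not part of the choice, but the siControl libraries they are measured against were. The siLARP4B tests of EGR1 are thus not independent of that choice. EGR1 fell to 49% of siControl in PC3 (log2 −1.03 ± 0.19, adjusted p = 9.9e-05) and to 58.2% in MG63 (−0.78 ± 0.14, adjusted p = 1.2e-04). The difference between the lines in the siLARP4B response was −0.25 ± 0.23 with a 95% interval of −0.71 to 0.21 and an adjusted p of 0.47. Its sign changed without PC3 siControl replicate 2 (0.08) and without PC3 siLARP4B replicate 1 (0.06). In PC3 the siRNAs differed by −0.18 ± 0.21 for EGR1, a value that turned to 0.13 without siLARP4A replicate 1 and to 0.11 without siLARP4B replicate 2. In MG63 the siLARP4A level was 311% of the siLARP4B level. These and all later adjusted p-values come from edgeR's quasi-likelihood test with Benjamini-Hochberg adjustment over the 15668 genes, two-sided.

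EGR2 and EGR3, the other EGR factors in the set, were barely expressed. EGR2 (chromosome 10, 62811996 to 62816366, minus strand) measured 0.542 and 0.74 FPKM in PC3 with siControl, 0.905 and 1.03 with siLARP4A and 0.438 and 0.535 with siLARP4B. Its MG63 levels were 0.0186 and 0.0176 FPKM with siControl, 0.288 and 0.199 with siLARP4A and 0.0171 and 0.089 with siLARP4B. The MG63 siControl level rested on 2 fragments over both libraries and the siLARP4A level on 26. Their ratio of 13.6 had a 95% counting interval of 3.4 to 118. EGR2 rose in MG63 after siLARP4A by edgeR's test (log2 3.62 ± 0.75, adjusted p = 8.9e-04). It did not pass in PC3, at 0.57 ± 0.25 and an adjusted p of 0.089, although both siLARP4A libraries lay above both siControl libraries. So EGR2 did not take the PC3 direction of EGR1. The difference between the lines was −3.06 ± 0.83 with an adjusted p of 0.019. It was lost when any of 4 libraries was left out: PC3 siControl replicate 2 (adjusted p = 0.058), MG63 siControl replicate 1 (0.1) or 2 (0.12), or MG63 siLARP4A replicate 1 (0.09). After siLARP4B EGR2 passed in neither line.

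EGR3 (chromosome 8, 22687659 to 22693480, minus strand) measured 0.0987 and 0.151 FPKM in PC3 with siControl, 0.232 and 0.187 with siLARP4A and 0.347 and 0.301 with siLARP4B. MG63 gave 0.135 and 0.139 FPKM with siControl, 0.33 and 0.418 with siLARP4A and 0.0791 and 0.0117 with siLARP4B. The siLARP4A libraries were above siControl in both lines, and the siLARP4B libraries were above it in PC3 and below it in MG63. After siLARP4A, EGR3 rose in MG63 (log2 1.46 ± 0.38, adjusted p = 0.0058) and did not pass in PC3 (0.74 ± 0.42, adjusted p = 0.19). The MG63 call was lost without siLARP4A replicate 2 (1.27, adjusted p = 0.074). After siLARP4B it rose in PC3 (1.32 ± 0.40, adjusted p = 0.0094), a call lost without PC3 siControl replicate 1 (adjusted p = 0.078) or siLARP4B replicate 1 (0.062). In MG63 it stood at −1.52 ± 0.59 on 8 fragments (7 and 1) against 23, with an adjusted p of 0.05 that fell just short of the threshold. The value was −3.38 without siLARP4B replicate 1 (adjusted p = 0.01) and −0.76 without siLARP4B replicate 2 (0.39), and it passed with RLE scaling (0.05 after rounding), with the longest model (0.049) and with no expression filter (0.037). The siLARP4B response of EGR3 differed between the lines by 2.84 ± 0.71 (adjusted p = 0.0044), where EGR1 fell in both. That difference was 4.69 without MG63 siLARP4B replicate 1 and 2.07 without replicate 2, and it passed each time.

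FOS, on chromosome 14 (75278828 to 75282230, plus strand), encodes the founding AP-1 subunit and is the classic serum-induced gene. It measured 2.73 and 3.49 FPKM in PC3 with siControl, 2.47 and 1.93 with siLARP4A and 3.35 and 4.18 with siLARP4B. In MG63 it measured 2.65 and 2.09 FPKM with siControl, 3.62 and 2.69 with siLARP4A and 2.79 and 2.27 with siLARP4B. After siLARP4A both PC3 libraries lay below the siControl libraries and both MG63 libraries above them. FOS fell in PC3 (log2 −0.50 ± 0.19, adjusted p = 0.045) and did not pass in MG63 (0.43 ± 0.19, adjusted p = 0.11), where it passed with no expression filter (0.43, adjusted p = 0.046). The lines differed by −0.93 ± 0.27 (adjusted p = 0.03), in the direction of EGR1. The PC3 call was lost without siControl replicate 2 (−0.29, adjusted p = 0.4) or siLARP4A replicate 2 (−0.32, adjusted p = 0.26). The difference between lines was lost without PC3 siControl replicate 2 (adjusted p = 0.17), PC3 siLARP4A replicate 2 (0.09), MG63 siControl replicate 2 (0.16) or MG63 siLARP4A replicate 1 (0.19). After siLARP4B FOS passed in neither line, at 0.22 ± 0.18 and 0.12 ± 0.20.

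FOSB (chromosome 19, 45467996 to 45475179, plus strand), a close relative of FOS, passed in none of the comparisons with siControl. It measured 0.752 and 1.06 FPKM in PC3 with siControl, 0.65 and 0.852 with siLARP4A and 1.08 and 1.31 with siLARP4B. In MG63 it lay between 0.208 and 0.446 FPKM in all 6 libraries. Its siLARP4A values, −0.30 ± 0.24 in PC3 and 0.32 ± 0.35 in MG63, had the signs of EGR1 but were within their error, and the MG63 value turned to −0.14 without siControl replicate 2.

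FOSL1, also called FRA-1, lies on chromosome 11 (65892049 to 65900388, minus strand) and is the AP-1 subunit that stays on in many invasive tumour lines. It measured 256 FPKM in both PC3 siControl libraries, 226 and 234 with siLARP4A and 174 and 180 with siLARP4B. Its MG63 levels were 140 FPKM in both siControl libraries, 149 and 147 with siLARP4A and 115 and 116 with siLARP4B. No 2 groups of a line overlapped. After siLARP4B it fell in both lines, to 67.1% of siControl in PC3 (log2 −0.58 ± 0.043, adjusted p = 3.1e-10) and to 84.3% in MG63 (−0.25 ± 0.044, adjusted p = 1.4e-04), as EGR1 did. The fall was larger in PC3, by −0.33 ± 0.061 (adjusted p = 3.3e-04). After siLARP4A it fell slightly in PC3 (−0.17 ± 0.042, adjusted p = 0.0037) and did not pass in MG63 (0.10 ± 0.044, adjusted p = 0.098). The siLARP4A response differed between the lines by −0.27 ± 0.061 (adjusted p = 0.0056), with the sign seen for EGR1 and at a much smaller size. The PC3 call was lost without siControl replicate 1 (adjusted p = 0.078) or siLARP4A replicate 1 (0.062), and the difference between lines without PC3 siControl replicate 1 (0.071).

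JUN (chromosome 1, 58780791 to 58784047, minus strand), the AP-1 subunit that FOS proteins pair with, moved against EGR1 in PC3. It measured 44.4 and 41.2 FPKM with siControl, 59 and 60.8 with siLARP4A and 40.2 and 40.6 with siLARP4B. MG63 gave 100 and 104 FPKM with siControl, 104 in both siLARP4A libraries, and 90.4 and 83.7 with siLARP4B. JUN rose to 139% of siControl in PC3 after siLARP4A (log2 0.47 ± 0.053, adjusted p = 3.0e-07), and this held with each library left out (0.44 to 0.57). In MG63 it did not pass (0.05 ± 0.05, 95% interval −0.05 to 0.15). The lines differed by 0.43 ± 0.073 (adjusted p = 4.3e-04), opposite in sign to EGR1. After siLARP4B it fell to 87% in MG63 (−0.20 ± 0.05, adjusted p = 0.0035) and did not pass in PC3 (−0.13 ± 0.054, adjusted p = 0.063); without PC3 siControl replicate 2 the PC3 value passed (−0.16, adjusted p = 0.048).

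JUNB (chromosome 19, 12791486 to 12793315, plus strand), an AP-1 subunit often opposed to JUN in growth control, followed EGR1 closely in MG63 and not in PC3. In MG63 it measured 76.9 and 73 FPKM with siControl, 123 and 122 with siLARP4A and 58.8 and 53.8 with siLARP4B. In PC3 it measured 60.5 and 61.7 FPKM with siControl, 55.5 and 69 with siLARP4A and 62.3 and 65.3 with siLARP4B. The MG63 groups did not overlap, and the 2 PC3 siLARP4A libraries lay on either side of siControl. JUNB rose to 166% of siControl in MG63 after siLARP4A (log2 0.73 ± 0.071, adjusted p = 8.0e-08) and fell to 76.5% after siLARP4B (−0.39 ± 0.073, adjusted p = 2.7e-04). In PC3 the values were 0.01 ± 0.073 and 0.02 ± 0.074, and neither passed. The first was 0.19 (adjusted p = 0.017) without siLARP4A replicate 1 and −0.12 (adjusted p = 0.13) without siLARP4A replicate 2. Both responses differed between the lines, by −0.72 ± 0.10 after siLARP4A (adjusted p = 5.9e-05) and by 0.41 ± 0.10 after siLARP4B (adjusted p = 0.0053).

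IER2 (chromosome 19, 13150411 to 13154911, plus strand), which encodes a nuclear protein, rose after siLARP4A in both lines. In PC3 it measured 168 FPKM in both siControl libraries, 177 and 197 with siLARP4A and 139 and 140 with siLARP4B. Its MG63 levels were 72.1 and 66 FPKM with siControl, 84.6 and 84 with siLARP4A and 76.5 and 71.3 with siLARP4B. The siLARP4A libraries lay above siControl in both lines. The rise was 0.31 ± 0.058 in MG63 (adjusted p = 3.3e-04) and 0.15 ± 0.054 in PC3 (adjusted p = 0.039). The PC3 call was lost without siControl replicate 2 (adjusted p = 0.075) or siLARP4A replicate 2 (0.16). After siLARP4B it fell to 80.7% of siControl in PC3 (−0.31 ± 0.055, adjusted p = 7.7e-05) and did not pass in MG63 (0.13 ± 0.058, adjusted p = 0.097), a difference of −0.44 ± 0.08 (adjusted p = 2.7e-04).

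MYC (chromosome 8, 127735434 to 127742951, plus strand), the growth regulator, moved least. It measured 151 and 142 FPKM in PC3 with siControl, 137 and 133 with siLARP4A and 145 and 146 with siLARP4B. All 6 MG63 libraries lay between 22.7 and 24.5 FPKM. After siLARP4A it passed in PC3 at −0.13 ± 0.044 (adjusted p = 0.03), but not without siControl replicate 1 (−0.04, adjusted p = 0.6), siLARP4A replicate 1 (adjusted p = 0.062) or siLARP4A replicate 2 (0.25). The difference between lines, −0.22 ± 0.067 (adjusted p = 0.038), was lost with any of the 8 libraries left out and under the replicate block (adjusted p = 0.056). After siLARP4B the values were −0.05 ± 0.044 in PC3 and 0.07 ± 0.05 in MG63, and neither passed.

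**Figure D3:**
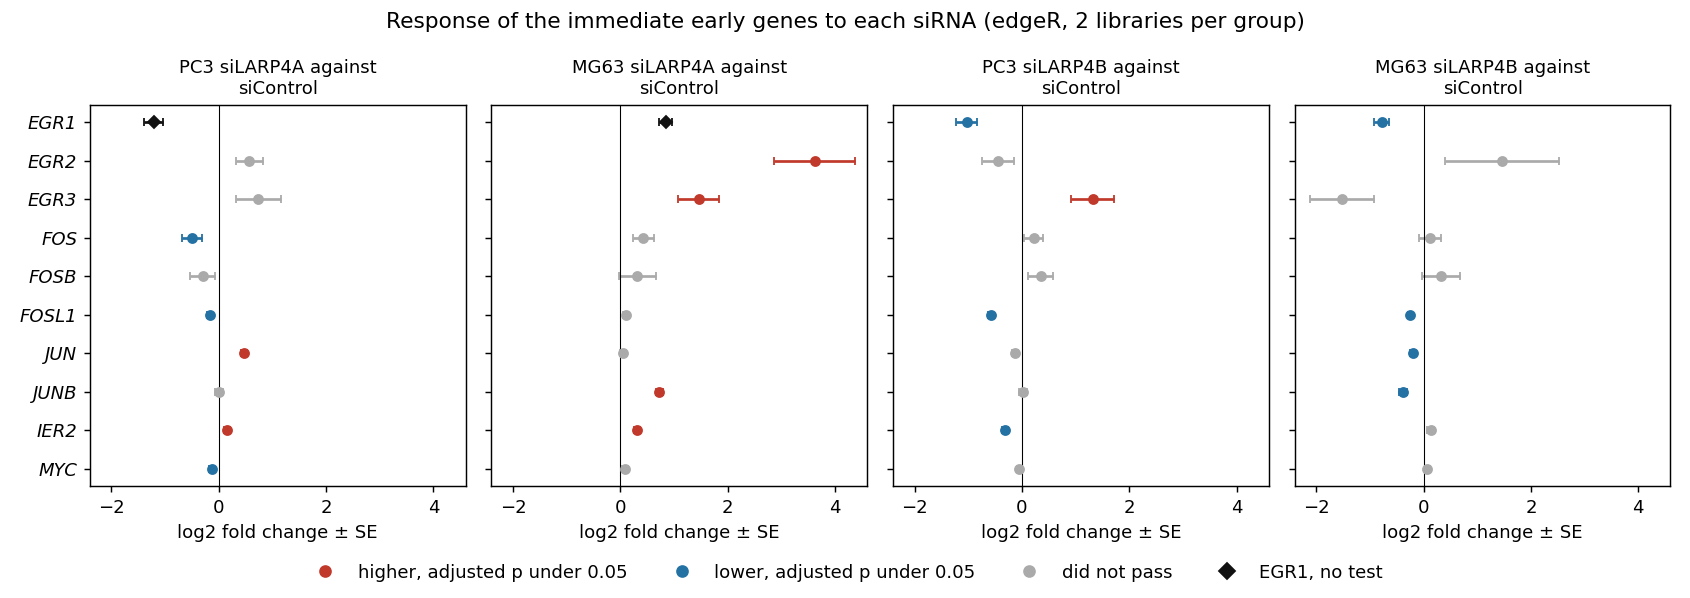
Log2 fold change against siControl of the 10 genes in each line and for each siRNA, with 1 standard error on either side. Red and blue points passed at an adjusted p under 0.05, grey points did not, and the black diamonds are EGR1 values with no test. EGR1 lies at −1.21 in PC3 and 0.85 in MG63 after siLARP4A, and at −1.03 and −0.78 after siLARP4B.

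Counted together for siLARP4A, 5 of the 9 tested genes passed in PC3, where 36% of all genes did. JUN and IER2 were higher (17% of all genes), and FOS, FOSL1 and MYC lower (19%). The PC3 calls of FOS and MYC were lost with RLE scaling, DESeq2, limma or the longest model of each gene, those of FOSL1 and MYC with the deduplicated siControl library, and that of IER2 with limma or a fit of the 6 PC3 libraries alone. Only the JUN call held in all of these. In MG63, 4 of 9 passed, where 26.4% of all genes did, and all 4 (EGR2, EGR3, JUNB and IER2) were higher, against 14.5% higher and 11.9% lower among all genes. The difference between the lines passed for 6 of 9, where 11.4% of all genes passed: EGR2, FOS, FOSL1, JUNB and MYC took the sign of EGR1 (7.3% of all genes), and JUN the opposite (4.1%). Of these, FOS was lost with DESeq2 or limma, EGR2 with limma, FOSL1 with the deduplicated library, and MYC with RLE scaling, DESeq2, limma, the longest model or the deduplicated library. The limma fit adds 1 to each FPKM, which shrinks changes of genes under 1 FPKM. EGR2, with group means of 0.0181 to 0.965 FPKM, differed by only −0.03 there, so that loss cannot decide its call. The deduplicated setting exchanged 1 library, at 85.4% of its plain total, and left the others plain, so its losses cannot decide a call either. The median difference of the 9 was −0.63 on the log2 scale, against −0.02 over all tested genes. With the expression filter, none of the 9 passed as lower in PC3 and higher in MG63, the pattern by which EGR1 was picked. With no filter FOS did, at adjusted p-values of 0.0089 in PC3 and 0.046 in MG63. Under the filter, opposite calls in the lines were found in 1.19% of all tested genes. Only IER2 passed in both lines, in the same direction.

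For siLARP4B, 4 of 10 genes passed in PC3, where 44.7% of all genes did: EGR1, FOSL1 and IER2 were lower (23.4% of all genes) and EGR3 was higher (21.3%). In MG63, 4 of 10 passed, where 35.1% of all genes did, and EGR1, FOSL1, JUN and JUNB were all lower, against 16.3% lower and 18.8% higher among all genes. Both shares are near the share of all genes. With no expression filter JUN also passed as lower in PC3 (−0.13, adjusted p = 0.041) and IER2 as higher in MG63 (0.14, adjusted p = 0.037). EGR1 and FOSL1 passed as lower in both lines, as 8.88% of all tested genes did. The difference between the lines passed for EGR3, FOSL1, IER2 and JUNB, 4 of 10, where 27.9% of all genes passed, 10.3% higher and 17.5% lower in PC3. EGR3 and JUNB were on the higher side and FOSL1 and IER2 on the lower. Both siRNAs were compared with the same siControl libraries, which also entered the choice of EGR1.

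Set against each other within a line, siLARP4A and siLARP4B differed for 6 of the 9 genes in PC3, where 54.2% of all genes differed, and for 6 of 9 in MG63, where 43.5% did. In MG63 all 6 were higher with siLARP4A: EGR2, EGR3, FOSL1, JUN, JUNB and IER2, against 22.1% higher and 21.5% lower among all genes. EGR3 (log2 2.98 ± 0.48) and JUNB (1.11 ± 0.072) had adjusted p-values of 2.3e-05 and 5.5e-11. The EGR3 value was 4.84 without MG63 siLARP4B replicate 1 and 2.21 without replicate 2, and it passed each time. In PC3, EGR2, FOSL1, JUN and IER2 were higher with siLARP4A (27% of all genes were) and, on the lower side (27.2%), FOS (−0.72 ± 0.19, adjusted p = 0.0022) and FOSB (−0.65 ± 0.23, adjusted p = 0.023) were lower. The FOSB call was lost without PC3 siLARP4A replicate 1 (adjusted p = 0.19) or siLARP4B replicate 2 (0.17), and with DESeq2 (0.11). The IER2 call in MG63 was lost without siLARP4A replicate 1 (0.065), siLARP4A replicate 2 (0.054) or siLARP4B replicate 2 (0.13). For EGR2 the call was lost in PC3 without siLARP4B replicate 1 (0.051) or with DESeq2 (0.056), and in MG63 without siLARP4A replicate 1 (0.055) or siLARP4B replicate 1 (0.091). JUNB in PC3, which did not pass at −0.01 ± 0.073, passed without siLARP4A replicate 2 (−0.17, adjusted p = 0.018).

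**Figure D4:**
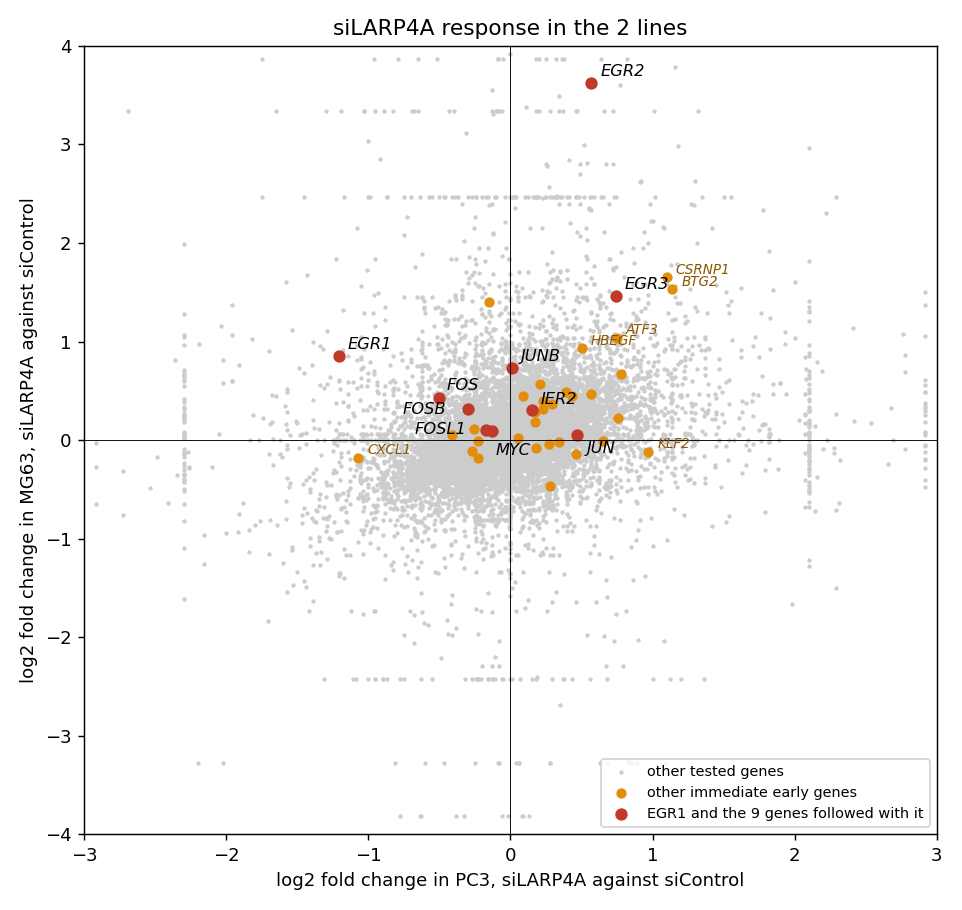
Log2 fold change after siLARP4A in PC3 (x axis) and in MG63 (y axis). Red points are EGR1 and the 9 genes followed with it, orange points other immediate early genes, and grey points other tested genes; 79 tested genes lie outside the axes. EGR1 lies at −1.21 and 0.85, in the upper left of the plot, while BTG2 and CSRNP1 lie above 1 on both axes.

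A list of 34 other immediate early genes was followed beside these, of which 31 could be tested. After siLARP4A, 18 rose and 5 fell in PC3, and 14 rose and 1 fell in MG63; of all tested genes, 17% rose and 19% fell in PC3, and 14.5% and 11.9% in MG63. Their median was 0.27 in PC3 and 0.22 in MG63 on the log2 scale, against 0.00 and 0.01 over all tested genes. Of the 31, 12 (38.7%) rose in both lines, as 7.6% of all tested genes did, and none passed in opposite directions. BTG2, an antiproliferative gene, rose by 1.14 ± 0.21 in PC3 and 1.53 ± 0.19 in MG63. CSRNP1, a nuclear factor induced by growth signals, rose by 1.10 ± 0.082 and 1.65 ± 0.13, and ATF3, a stress-induced factor, by 0.75 ± 0.074 and 1.04 ± 0.12. HBEGF, a ligand of the EGF receptor, rose by 0.50 ± 0.086 and 0.93 ± 0.081. So in PC3 these genes rose where EGR1 was lower. CXCL1, a chemokine, fell in PC3 (−1.07 ± 0.11) and did not pass in MG63 (−0.18 ± 0.14), so the lines differed by −0.90 ± 0.17 (adjusted p = 0.0015). KLF2, a factor of the Krüppel-like family, rose in PC3 (0.97 ± 0.17) and not in MG63 (−0.12 ± 0.096), a difference of 1.09 ± 0.20 (adjusted p = 7.5e-04).

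After siLARP4B, 16 of the 31 rose and 4 fell in PC3, and 6 rose and 7 fell in MG63, where 21.3% of all tested genes rose and 23.4% fell in PC3, and 18.8% and 16.3% in MG63. The MG63 share is near that of all genes. NR4A2, an orphan nuclear receptor, and RHOB, a small GTPase, rose in both lines, NR4A2 by 1.34 ± 0.27 and 0.59 ± 0.20 and RHOB by 0.49 ± 0.072 and 0.67 ± 0.077. BTG2 rose in PC3 (1.09 ± 0.22) and did not pass in MG63 (−0.43 ± 0.25), a difference of 1.52 ± 0.33 (adjusted p = 0.0015). KLF10, a TGF-beta-induced factor, fell in MG63 (−0.61 ± 0.071) after rising there with siLARP4A (0.57 ± 0.064). CXCL1 rose in MG63 by 1.01 ± 0.12. ARC and CXCL2 rose in PC3, each by 0.77. Of 7 heat shock genes, read as a sign of stress, 3 rose and 1 fell in PC3 and 1 rose and 2 fell in MG63 after siLARP4A. After siLARP4B 2 rose and 3 fell in PC3, and 6 rose and none fell in MG63, HSPH1 most (0.78 ± 0.054). Passing in either direction were 36% of all tested genes in PC3 and 26.4% in MG63 after siLARP4A, and 44.7% and 35.1% after siLARP4B. Their part in the changes of the immediate early genes was not tested.

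**Figure D5:**
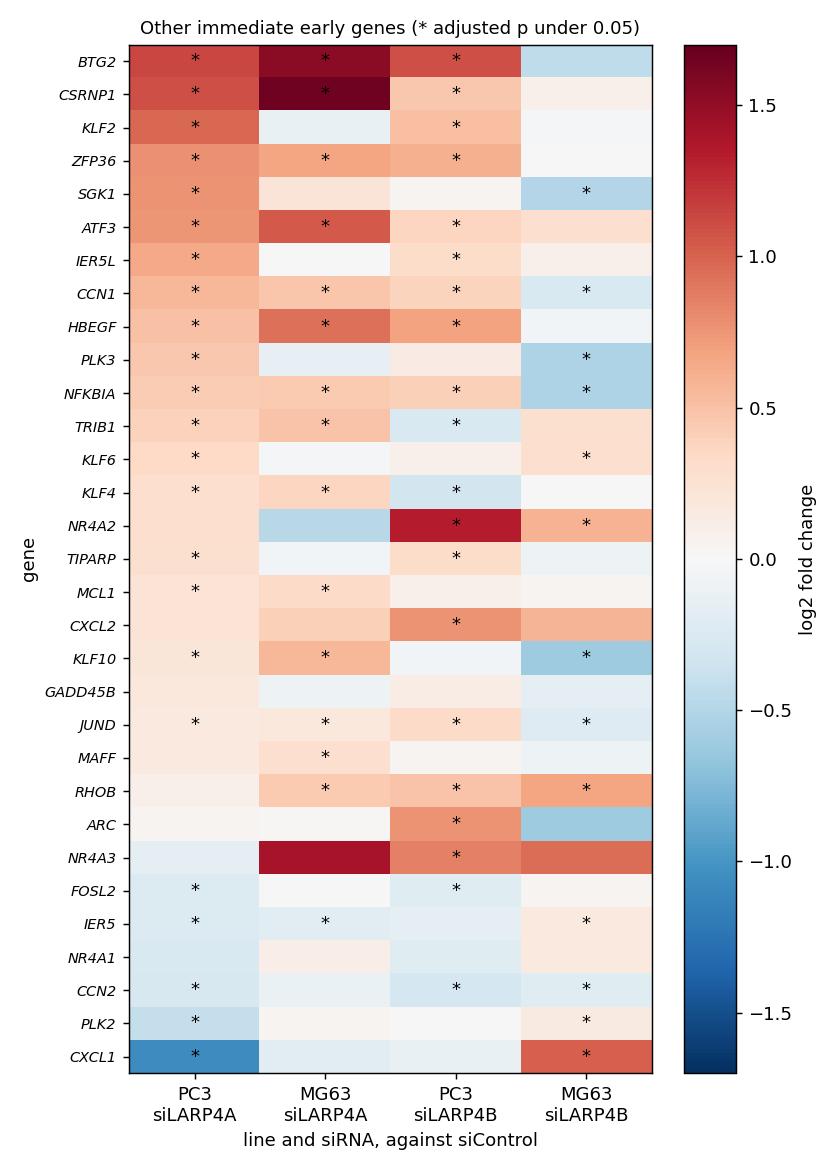
Log2 fold change of the 31 other immediate early genes tested, for each line and siRNA against siControl, ordered by the PC3 siLARP4A value. Red is higher and blue lower than siControl, and a star marks an adjusted p under 0.05. The 2 siLARP4A columns hold 18 and 14 stars on red, the MG63 siLARP4B column 6.

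Upstream of the immediate early genes, SRF, the serum response factor that binds CArG boxes, rose after siLARP4A in both lines, by 0.32 ± 0.055 in PC3 and 0.53 ± 0.059 in MG63, and after siLARP4B in MG63 (0.27 ± 0.059). ELK4, one of its ternary complex partners, fell in all 4 comparisons with siControl, most after siLARP4B: by −1.73 ± 0.077 in PC3 and −0.97 ± 0.069 in MG63. MAP2K1, which encodes the kinase MEK1, also fell in all 4, by between −0.48 and −0.20. NRAS rose after siLARP4A (0.30 ± 0.058 and 0.20 ± 0.055) and fell after siLARP4B (−0.79 ± 0.063 and −0.41 ± 0.056). MAPK8 and MAPK9, the genes of the JUN kinases, fell after siLARP4B in both lines. Over the 24 upstream factors and kinases tested, 8 rose and 3 fell in PC3 and 4 rose and 4 fell in MG63 after siLARP4A; after siLARP4B 4 rose and 11 fell in PC3 and 4 rose and 8 fell in MG63. The share of all tested genes that passed was 36% and 26.4% after siLARP4A and 44.7% and 35.1% after siLARP4B, in PC3 and MG63. Medians of the list lay between −0.07 and 0.08, and those of all tested genes between 0.00 and 0.01.

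Among 14 feedback genes that MAPK signals induce to damp themselves, 6 rose and 4 fell in PC3 and 3 rose and 3 fell in MG63 after siLARP4A, and 2 rose and 5 fell in PC3 and 5 rose and 5 fell in MG63 after siLARP4B. For all tested genes the shares that passed were 36%, 26.4%, 44.7% and 35.1% in that order. DUSP2, a phosphatase of MAP kinases, rose in all 4 comparisons, from 0.49 ± 0.11 to 1.14 ± 0.10. DUSP4 fell in all 4, by −0.24 ± 0.052 and −1.02 ± 0.17 after siLARP4A and by −0.53 ± 0.053 and −1.31 ± 0.18 after siLARP4B in PC3 and MG63. SPRY4 rose in both lines after siLARP4A (0.40 ± 0.063 and 0.53 ± 0.064). SPRY2, its relative, rose in PC3 (0.28 ± 0.07) and fell in MG63 (−0.33 ± 0.081) after siLARP4A, opposite to EGR1 in both lines.

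Of 15 corepressors and known target genes of EGR factors, 6 rose and 2 fell in PC3 and 8 rose and none fell in MG63 after siLARP4A, where 17% and 19% of all tested genes rose and fell in PC3 and 14.5% and 11.9% in MG63. The tissue factor gene F3, the platelet growth factor gene PDGFA, the adhesion gene ICAM1 and the membrane protease gene MMP14 rose in both lines. EGR1 itself was lower in PC3 and higher in MG63, and whether it acts on these genes here was not tested. MMP14 measured 39.3 and 35.6 FPKM in PC3 with siControl and 64.1 and 63.2 with siLARP4A, and 96.4 and 97.8 against 156 and 155 in MG63. Its rise was 0.76 ± 0.058 and 0.70 ± 0.055. PDGFA rose by 1.13 ± 0.13 in PC3 and 0.64 ± 0.21 in MG63. After siLARP4B, with EGR1 lower in both lines, 6 rose and 2 fell in PC3 and 1 rose and 3 fell in MG63, where the shares of all genes were 21.3% and 23.4%, and 18.8% and 16.3%. ICAM1 rose in PC3 (1.13 ± 0.095) and did not pass in MG63 (0.31 ± 0.15). NAB1, a corepressor that EGR factors recruit, fell in PC3 after siLARP4A (−0.38 ± 0.073) and rose in both lines after siLARP4B (0.34 ± 0.071 and 0.55 ± 0.079).

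Of 17 AP-1 partners and target genes tested, 5 rose and 5 fell in PC3 and 7 rose and 4 fell in MG63 after siLARP4A, and after siLARP4B 6 rose and 4 fell in PC3 and 4 rose and 4 fell in MG63. Against these stand 36%, 26.4%, 44.7% and 35.1% of all tested genes that passed, in the same order. The collagenase gene MMP1 fell in all 4 comparisons, from −0.41 ± 0.096 in PC3 to −1.57 ± 0.12 in MG63 after siLARP4A. MMP3, the stromelysin gene, fell in MG63 from 70.7 and 63.7 FPKM with siControl to 14.1 and 14.7 with siLARP4A and 23.4 and 22.6 with siLARP4B. PLAU, the urokinase gene, rose in all 4, most in MG63 after siLARP4A (0.87 ± 0.042). CXCL8, the interleukin-8 gene, took opposite directions in the lines, as EGR1 did. It measured 28.6 and 25.6 FPKM in PC3 with siControl and 17.3 and 16.4 with siLARP4A, and in MG63 15.2 and 15.8 against 26 and 28.2. Its difference between lines was −1.52 ± 0.13 (adjusted p = 9.6e-08). MMP13 fell in PC3 with either siRNA (−1.42 ± 0.15 and −1.56 ± 0.16).

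MYC target genes were followed beside MYC, which did not pass in either line after siLARP4B. Whether MYC acts on them here was not tested. Of 20 tested, 2 rose and 13 fell in PC3 and 13 rose and 3 fell in MG63 after siLARP4B, with medians of −0.26 and 0.21, where 21.3% of all tested genes rose and 23.4% fell in PC3, and 18.8% and 16.3% in MG63. The difference between lines passed for 19 of the 20, all lower in PC3, where 17.5% of all tested genes passed as lower. NOLC1, a nucleolar protein gene, fell in both lines (−0.84 ± 0.054 and −0.26 ± 0.055). LDHA, the lactate dehydrogenase gene, fell in PC3 (−0.81 ± 0.043) and did not pass in MG63 (0.00 ± 0.043). RRP9, a ribosome assembly gene, rose in MG63 (0.76 ± 0.073) and did not pass in PC3 (0.02 ± 0.061). After siLARP4A 3 rose and 8 fell in PC3, and none rose and 10 fell in MG63, where 19% and 11.9% of all tested genes fell. CAD, EIF4E, LDHA and NOLC1 were among the 6 that fell in both lines (30% of the list, where 7.12% of all tested genes did).

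Across the 12 libraries, with each line's mean subtracted, the log2 level of EGR1 was compared with that of 6749 genes above 5 FPKM in both lines. The 9 genes followed with it were compared without this limit, and EGR2, EGR3, FOS and FOSB lay below it. EGR3 held only 1 to 35 fragments in a library. The libraries share groups of 2, so the correlation is a description of 6 groups and carries no p. JUNB (r = 0.77) and FOSL1 (0.70) were the most like EGR1 of the 9, then EGR3 (0.48), EGR2 (0.45), FOS (0.43), MYC (0.35), IER2 (0.34) and FOSB (0.22), with JUN at 0.03. Within the 6 MG63 libraries r was 0.98 for JUNB, 0.95 for FOSL1, 0.94 for EGR3 and 0.89 for JUN. Within the 6 PC3 libraries it was 0.31, 0.58, −0.69 and −0.39 for the same genes. Among the 10 genes most like EGR1 were SGCE and YIPF3 (both 0.90), POLD4 (0.88), ITGB5, SMG9 and LAMB1 (0.87), and CYB561D2, EIF2D and PHGDH (0.86). SGCE, the gene of a membrane sarcoglycan, stood after siLARP4A at −0.09 ± 0.07 in PC3 and at 0.17 ± 0.066 in MG63, and neither passed. The genes least like EGR1 were SDAD1 and AAR2 (both −0.92) and ANO10 (−0.90). AAR2, a splicing assembly factor, rose in PC3 after either siRNA (0.25 ± 0.057 and 0.24 ± 0.058) and in MG63 after siLARP4B (0.18 ± 0.06).

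The genes share a compact build. Their spans in the tables ran from 1830 bases (JUNB) to 8340 bases (FOSL1), with a median of 4436 bases against 25852 for tested genes; 22.5% of tested genes were no longer than FOSL1. AU-rich pentamers (ATTTA), which mark many short-lived messages, were counted in the 3′ untranslated regions of GENCODE release 29 for all but MYC. FOS held 5 in 806 bases, a density above that of 94.7% of 13303 genes, and 2 longer TATTTAT elements. JUNB held 2 in 500 bases, EGR1 held 1 in 1234 bases and IER2 none in 1050. The median density of the 9 genes was 1.5 per kilobase against 1.61 over all genes. The density was 0.81 per kilobase in EGR1, 4 in JUNB and 2.33 in JUN. Whether it bears on the changes of these genes was not tested.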

How the data were processed

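Poly(A) RNA of the 12 libraries was measured by sequencing, and each library came as 1 table of 86394 transcript models. Per the submitters' processing notes, FastQC, HISAT2, featureCounts, edgeR and the genome build hg38 were used; no versions or roles are given. The authors deposited, per the file headers, a fragment count, an FPM signal, which is scaled by library size, and an FPKM value for each model. Models of a gene share exons and their fragments are listed under each, so the authors' FPM values sum to 3350072 per library on average. Whether counting used strand is not given in the sources used here. In 3 tables an unnamed further column holds 18 values in all, which were not used.

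Models on chromosomes 1 to 22 and X were kept. The 1748 symbols at more than 1 locus were left out, and each of the 26415 remaining symbols was read from its model with the largest summed fragment count. Fragment counts were tested in R 4.3.3 with edgeR 4.0.16 (quasi-likelihood test, TMM scaling, the default filter by group, 1 fit of all 12 libraries), with p-values adjusted by Benjamini-Hochberg over 15668 genes and a threshold of 0.05. The common dispersion was 0.00177, a coefficient of variation of 4.21%. The code was tested on simulated data. Alternatives used RLE scaling, DESeq2 1.42.0, limma 3.58.1 on log2(FPKM + 1), other filters, a replicate block, the longest model per gene, the 6 libraries of 1 line, a deduplicated table of PC3 siControl replicate 2, and each library left out.

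The 10 genes and the gene lists were chosen with earlier results of these data known. From each list, up to 4 genes past the threshold with the largest change and at least 1 FPKM in either group are named per siRNA comparison, with genes so named given in any comparison; the LARP4 and LARP4B genes are named once. Likeness to EGR1 is Pearson r of TMM log2 CPM with a prior count of 2, for the 10 highest and 3 lowest genes. Some genes that these rules or the marker lists name are not reported here. Counting intervals cover counting error only, since the reads carry no molecular identifiers in the sources used here.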

Additional observations from a re-analysis of the deposited data

Results flagged for a closer look

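For 6 genes the siLARP4A response differed between PC3 and MG63 by the interaction test of edgeR (log2, PC3 minus MG63): EGR2 by −3.06, FOS by −0.93, FOSL1 by −0.27, JUNB by −0.72 and MYC by −0.22, and JUN by 0.43 in the other direction. These were 6 of the 9 tested, where 11.4% of all tested genes passed. The EGR2, FOS, FOSL1 and MYC calls among them were each lost under some alternatives, as given above. For 4 genes the siLARP4B response differed: EGR3 by 2.84, JUNB by 0.41, FOSL1 by −0.33 and IER2 by −0.44. These were 4 of 10, where 27.9% of all tested genes passed. JUNB and FOSL1 are in both lists. JUNB has opposite signs in them, and FOSL1 the same sign. With each of the 8 libraries left out in turn, the JUN, JUNB, EGR3 and IER2 differences and the siLARP4B difference of FOSL1 passed every time, while those of MYC never did.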

How the results depend on the processing

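Of the 9 genes tested for siLARP4A in PC3, 5 passed, against 3 with RLE scaling, DESeq2, limma, the deduplicated siControl library or the longest model, and 2 to 4 with 1 library left out. In MG63 the 4 became 2 with DESeq2 or a filter at 1 FPKM, and 3 to 4 with 1 library left out. EGR2 and EGR3 made up that difference: DESeq2 gave them no adjusted p in MG63, and the filter removed them, so neither is a lost call. With no expression filter the 4 became 5, FOS being added (adjusted p = 0.046). The 6 that differed between lines became 3 with DESeq2, which gave EGR2 no adjusted p, or with limma, and 3 to 5 with 1 library left out. The count of all genes past the threshold ran, with 1 library left out, from 2698 to 2822 for siLARP4A in MG63 (4138 with all) and from 1050 to 2035 for the difference between lines (1785 with all). JUN in PC3 and JUNB in MG63 after siLARP4A, and EGR1 and FOSL1 in both lines after siLARP4B, passed under every alternative run. For EGR1 the alternatives drew on the siControl libraries that also entered its choice, so they cannot test the effect of that choice. The FOSB difference between siRNAs in MG63 turned from 0.01 to −0.002 without a filter and −0.001 with the longest model, and the DUSP4 difference between lines after siLARP4B turned to −0.04 with limma. The cause of these shifts was not tested.

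Same-numbered libraries did not deviate together (r of −0.0267 to 0.0486 over genes), so the numbers were not taken to pair the samples. EGR1, FOSB and JUNB went with the number, though. In FPKM their replicate 2 was the higher in every PC3 group and replicate 1 in every MG63 group. FOS and IER2 had replicate 1 the higher in every MG63 group, and EGR2 had replicate 2 the higher in every PC3 group. Leaving out 1 library breaks that match. With the block, the EGR1 difference between lines after siLARP4B was −0.23 (adjusted p = 0.16) and that between siRNAs in PC3 −0.16. With the replicate block, 5, 4 and 5 of the 9 genes passed in PC3, in MG63 and between lines after siLARP4A, and 4 of 10 in each siLARP4B comparison; 5444 of all genes passed in PC3 and 3976 in MG63 after siLARP4A.

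With 1 library left out, signs turned only for values that had not passed or had no test. Against siControl in MG63 after siLARP4B, EGR2 ranged from −0.05 to 2.20, FOS from −0.05 to 0.30 and FOSB from −0.15 to 0.93. FOSB after siLARP4A in MG63 ranged from −0.14 to 0.94, JUNB after siLARP4A in PC3 from −0.12 to 0.19, and MYC after siLARP4B in PC3 from −0.07 to 0.04. The siLARP4B difference between lines ranged from −0.50 to 0.08 for EGR1, −0.09 to 0.32 for FOS and −0.60 to 0.48 for FOSB. Between siRNAs, EGR1 in PC3 ranged from −0.49 to 0.13, JUNB in PC3 from −0.17 to 0.14 and FOSB in MG63 from −0.18 to 0.23.

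Depth limits EGR2 and EGR3 most: in MG63 they rested on 2 and 23 siControl fragments.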
